A study of Homo sapiens with 12 samples.

Results

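The genes that write, erase and read histone acetylation were compared between DMSO-treated and USP7-inhibited leukemic cells. The list holds 53 genes in 6 classes: 10 acetyltransferases, 8 subunits of acetyltransferase complexes, 11 zinc-dependent deacetylases, 6 sirtuins, 12 subunits of deacetylase complexes and 6 bromodomain proteins. They were found by matching the Ensembl identifiers of the count files, version dropped, to GENCODE symbols, and all 53 were among the 60609 genes listed. All 53 also passed the filter on low counts, which left 13895 genes for testing.

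The cells were K562, a widely used line derived from the blast crisis of a chronic myeloid leukemia. The control group was 3 K562 libraries after 48 h with DMSO, the solvent. The other group was 3 K562 libraries after 10 μM FT671, a small molecule that inhibits the deubiquitinase USP7, and its cells were exposed for 48 h. Sequencing was paired-end on total RNA freed of ribosomal RNA, and the counts per library ranged from 4555220 to 14250500. Both groups are the same line with no other change named in the labels, so the results describe 1 leukemic cell line at 1 dose and 1 time.

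Acetyl groups on the lysines of histone tails loosen chromatin and are read as a sign of active promoters and enhancers. Acetyltransferases place them from acetyl-CoA, mostly as the catalytic part of large complexes, and deacetylases remove them, either with a zinc ion in the active site or, in the sirtuins, by consuming NAD. Bromodomains bind the acetylated lysine and recruit further factors, and several of these regulators are drug targets in leukemia.

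Of the 53 genes, 20 fell and 4 rose after FT671 at an adjusted p of 0.05 (quasi-likelihood test of edgeR, adjusted over all 13895 genes by the Benjamini-Hochberg method), and 29 did not pass. That is 37.7% lower and 7.55% higher, beside 26.5% lower and 23.6% higher among all genes tested (50.1% in either direction). The shares of all genes tested are also the background for the counts by class below. The 4 genes that rose were KAT2A, SIRT6, ING1 and ING2. The median log2 fold change was −0.13 over the 53 genes and −0.01 over all genes tested, and 36 of the 53 fold changes were negative. Together the 53 genes held between 0.470% and 0.486% of all counts in the DMSO libraries and between 0.400% and 0.407% in the FT671 libraries, so these shares did not overlap. No such share is given here for other lists of genes, and the shares take no account of gene length. In bulk RNA, fewer cells expressing a gene and less of its RNA per cell cannot be told apart.

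The changes were mostly below 2-fold. BRD1 was the 1 gene of the list past both an adjusted p of 0.05 and a 2-fold change, against 6.53% of all genes tested that fell and 3.91% that rose by this measure. BRD1 was also the 1 gene past the stricter threshold of 1e-05, which 4.13% of all genes tested passed with a fall and 1.79% with a rise (5.92% in either direction). This number was unstable: the genes of the list that fell at 1e-05 numbered 9 by DESeq2, 12 with no filter on low counts and 6 with the replicate number as a block, and from 0 to 10 with each library left out, the 10 without DMSO replicate 3. By edgeR no gene of the list rose at 1e-05, while 6 rose at an unadjusted p of 0.05 and 1 rose at 1e-05 by DESeq2. Every FT671 library lay below every DMSO library for 24 of the 53 genes and above for 7, where all genes tested gave 30.3% and 26.8%.

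The number of genes called higher depended on a correction for gene length. The 53 genes have a median exon length of 6613 bases, beside 4743.5 for all genes tested. After a correction of each library for gene length, 17 genes of the list were lower and 11 higher, with a median log2 fold change of −0.05 beside 0.04 for all genes. The calls over all genes moved as well, to 3308 lower and 3823 higher, in place of 3687 and 3276. A correction for GC content gave 22 genes of the list lower and 9 higher. DMSO replicate 3 stood apart from the other DMSO libraries (chi-square per degree of freedom 7.55 and 8.73, against 2.94 between DMSO replicates 1 and 2). Without it 21 genes were lower and 5 higher, and these included all 24 genes called with it.

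**Figure D1:**
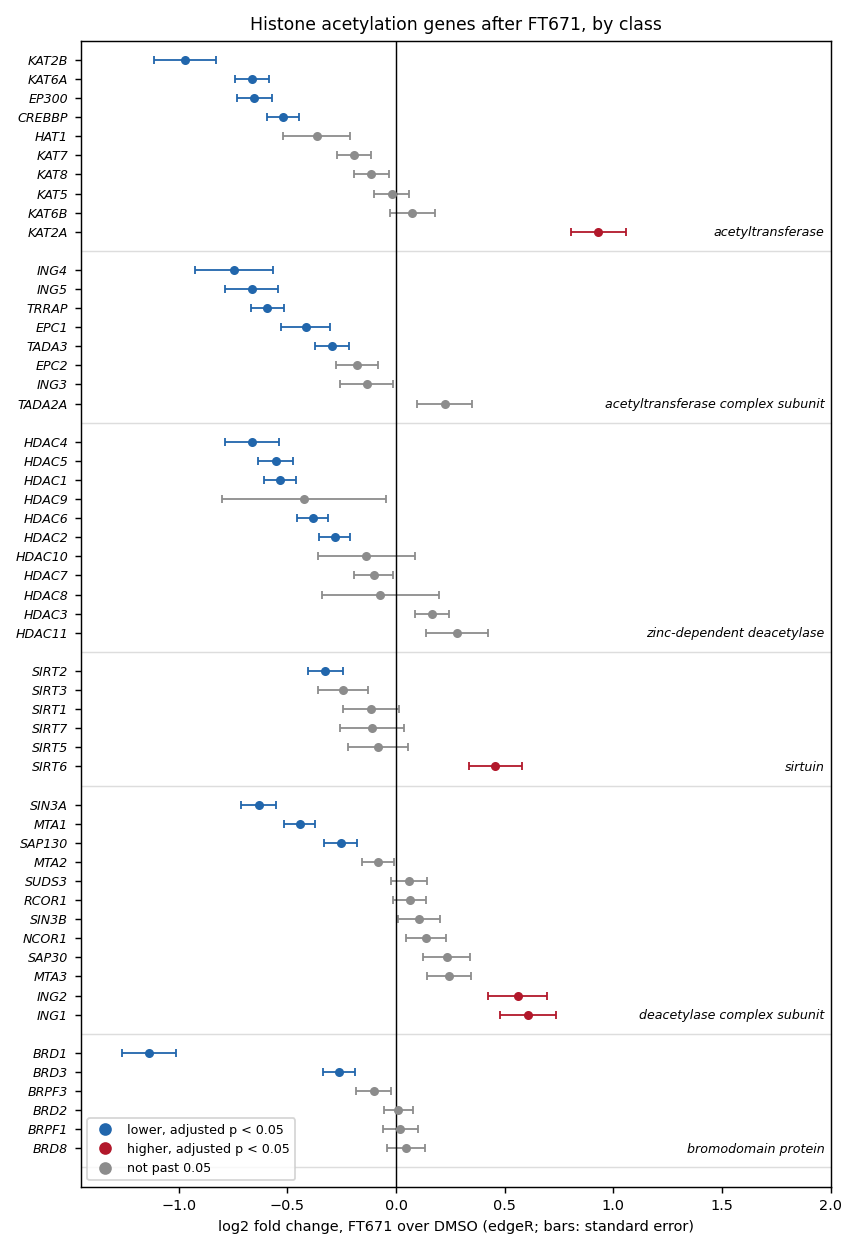
The log2 fold change of each of the 53 genes (horizontal axis, FT671 over DMSO, from edgeR) is drawn by class, with bars for the standard error and colors for the call at an adjusted p of 0.05. The 20 genes that fell are spread over all 6 classes, BRD1 lies farthest to the left at −1.14, and KAT2A farthest to the right at 0.93.

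The promoters of 3 genes are shown because these genes had the largest rise (KAT2A), the largest fall (BRD1) and, in KAT2B, the strongest contrast between close paralogs. PRC1.1, the Polycomb complex that the study places USP7 in, reaches chromatin through KDM2B, a protein that binds unmethylated CG dinucleotides, and CG is therefore printed in capitals. Each sequence is the 250 bases before the gene's start, 5′ to 3′ on the gene's strand, from RefSeq (GRCh38.p14).
KAT2A, chr17:42121368-42121617, minus strand: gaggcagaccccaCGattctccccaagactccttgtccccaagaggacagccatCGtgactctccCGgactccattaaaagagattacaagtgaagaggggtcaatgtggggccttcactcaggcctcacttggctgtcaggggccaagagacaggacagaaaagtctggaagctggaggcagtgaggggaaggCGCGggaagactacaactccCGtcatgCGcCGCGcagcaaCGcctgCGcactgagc
KAT2B, chr3:20040196-20040445, plus strand: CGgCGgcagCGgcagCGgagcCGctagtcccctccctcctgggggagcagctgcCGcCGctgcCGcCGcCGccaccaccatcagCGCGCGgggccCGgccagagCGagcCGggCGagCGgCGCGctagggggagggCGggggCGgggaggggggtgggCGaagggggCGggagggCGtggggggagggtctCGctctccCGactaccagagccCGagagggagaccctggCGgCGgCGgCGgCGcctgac
BRD1, chr22:49827874-49828123, minus strand, the first of 3 starts listed: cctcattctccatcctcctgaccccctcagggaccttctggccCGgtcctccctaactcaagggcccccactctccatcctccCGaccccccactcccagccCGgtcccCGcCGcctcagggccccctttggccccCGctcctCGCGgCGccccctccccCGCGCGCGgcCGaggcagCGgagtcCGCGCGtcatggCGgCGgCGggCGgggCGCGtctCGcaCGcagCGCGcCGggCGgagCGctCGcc

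The KAT2A window held 11 CG and was 58.8% G or C, and 50.3% of the 35116 RefSeq windows of the same length held at least as many. The KAT2B window held 33 CG (80.8% G or C), a number reached by 8.15% of windows. The first BRD1 window, printed here, held 32 CG (77.6% G or C), reached by 9.52%, while the other BRD1 windows held 9 and 5. CG reads the same on both strands, cannot overlap itself, and occurred at least once in 93.9% of windows. Windows were listed for 47 of the 53 genes, all but TRRAP, ING3, SIRT7, HDAC5, KAT8 and KAT6A. With each gene at the median of its windows (9 for BRD1), the median number of CG was 24.5 for the 17 of these genes that fell, 23.25 for the 4 that rose and 24 for the 26 that did not pass, beside 21 for the tested genes with a window. These medians lay close together, and the letters say nothing of methylation or binding in these cells.

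Among the acetyltransferases 4 of 10 fell, 1 rose and 5 did not pass, with a median log2 fold change of −0.28. EP300 and CREBBP, which encode the paralogous coactivators p300 and CBP that acetylate H3K27 at enhancers, both fell. EP300 (chr22:41092592-41180077) was at 142, 142 and 153 CPM (reads scaled to a common library size, by TMM) in DMSO replicates 1, 2 and 3 and at 85.5, 91.1 and 99.6 CPM in FT671 replicates 1, 2 and 3. The lowest DMSO library was well above the highest FT671 library, and the gene fell by 0.65 on the log2 scale (SE 0.08, edgeR adjusted p = 1.7e-05). CREBBP (chr16:3725054-3880713) was at 210, 240 and 222 CPM in DMSO and at 156, 151 and 161 CPM after FT671. Its groups were likewise separate, with a fall of 0.52 (SE 0.07, edgeR adjusted p = 5.89e-05). Both are long transcripts, and with the length correction the falls were 0.48 and 0.37 on the log2 scale (edgeR adjusted p = 4.3e-05 and 7.95e-04).

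KAT2A and KAT2B moved in opposite directions. They encode GCN5 and PCAF, which replace each other as the H3K9 acetyltransferase of the SAGA and ATAC complexes. KAT2A (chr17:42113111-42121367) was at 30.2, 36.2 and 25.9 CPM in DMSO and rose to 67.7, 53.8 and 57.4 CPM after FT671. KAT2B (chr3:20040446-20154404) was at 32.3, 28 and 35.7 CPM in DMSO and fell to 12.7, 15.3 and 18.9 CPM. Neither gene's groups overlapped. KAT2A rose 1.91-fold (0.93 on the log2 scale, SE 0.13, edgeR adjusted p = 3.75e-05), which placed it above 95.3% of all genes tested. KAT2B was 1.96-fold lower (fall of 0.97, SE 0.14, edgeR adjusted p = 8.42e-05). A second annotated gene on the same strand, ENSG00000267261, shares 10.7% of the KAT2A exon bases and had no counts in any library.

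KAT6A, which encodes MOZ, an H3 acetyltransferase fused to other genes in some leukemias, fell while its paralog KAT6B did not pass. KAT6A was at 130, 135 and 144 CPM in DMSO and at 80, 89.3 and 87.9 CPM after FT671, groups that lay far apart, and it fell by 0.66 (SE 0.08, edgeR adjusted p = 1.27e-05). KAT6B (MORF) had a log2 fold change of 0.08 with overlapping groups (edgeR adjusted p = 0.566). The other acetyltransferases did not pass. KAT7, the HBO1 enzyme that acetylates H3K14, had a log2 fold change of −0.19, and its FT671 libraries all lay below DMSO (edgeR adjusted p = 0.0531), and 7 of the 18 alternatives called it lower (adjusted p = 0.0217 with the block). HAT1, which acetylates newly made histone H4, was at −0.36, and this value rested on DMSO replicate 3, at 80.6 CPM beside 54.9 and 47.2 CPM in the other DMSO libraries. Without that library its log2 fold change was −0.15 (edgeR adjusted p = 0.172), while 6 alternatives called it lower (adjusted p = 0.0182 with the block and 0.0135 with the GC correction). The H4 acetyltransferases KAT5 (TIP60) and KAT8 (MOF) were at −0.02 and −0.11 (edgeR adjusted p = 0.855 and 0.254). KAT5 shares 38.6% of its exon bases with RNASEH2C on the other strand, and its counts are uncertain because the strand setting of the counting is not given in the sources used here.

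Of the 8 subunits of acetyltransferase complexes, 5 fell and 3 did not pass (median −0.35). By edgeR no subunit rose, also at an unadjusted p of 0.05, and DESeq2 called no rise either, although the length correction called 1. TRRAP, the large scaffold shared by SAGA and the NuA4/TIP60 complex, was at 280, 286 and 324 CPM in DMSO and at 191, 197 and 202 CPM after FT671. It fell by 0.59 (SE 0.08, edgeR adjusted p = 2.19e-05) with no overlap between groups. SMURF1, on the other strand, shares 3.68% of the TRRAP exon bases and fell by 1.18 on the log2 scale. TADA3, the adaptor that holds KAT2A or KAT2B in SAGA and ATAC, was at 188, 184 and 161 CPM in DMSO and at 152, 141 and 144 CPM after FT671. The TADA3 groups did not overlap, although DMSO replicate 3 lay close to FT671 replicate 1, and the fall was 0.29 (SE 0.08, edgeR adjusted p = 0.00649). OGG1 and ARPC4, on the other strand, share 8.63% and 5.11% of the TADA3 exon bases. Their log2 fold changes were 0.33 and 0.34, the opposite direction. TADA2A, a further adaptor of ATAC, had a log2 fold change of 0.22 (edgeR adjusted p = 0.156) and was called higher with the length correction (0.32, adjusted p = 0.0422).

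The ING proteins bind methylated H3K4 through a PHD finger and bring different enzymes to it. ING5, of the MOZ/MORF and HBO1 complexes, was at 24.3, 24.5 and 24.8 CPM in DMSO and at 18.2, 14.8 and 14.2 CPM after FT671. Its DMSO libraries were almost equal and lay above every FT671 library, with a fall of 0.66 (SE 0.12, edgeR adjusted p = 5.05e-04). ING4, of the HBO1 complex, was at 8.1, 9.53 and 9.43 CPM in DMSO and at 6, 4.51 and 5.45 CPM after FT671. It fell by 0.75 (SE 0.18, edgeR adjusted p = 0.00328), again without overlap. ING3, of NuA4/TIP60, had a log2 fold change of −0.13 (edgeR adjusted p = 0.377). EPC1, an enhancer of Polycomb homolog that anchors KAT5 in NuA4/TIP60, fell by 0.41 (edgeR adjusted p = 0.00747), a call lost with the length correction (adjusted p = 0.0529). Its paralog EPC2 was at −0.18 (edgeR adjusted p = 0.146).

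By contrast, ING1 and ING2, which sit in the SIN3 deacetylase complex, rose. ING1 was at 24.8, 25.9 and 17.7 CPM in DMSO and at 36.4, 34.5 and 35.8 CPM after FT671. The FT671 libraries were within a narrow range above all DMSO libraries, and the rise was 0.61 (SE 0.13, edgeR adjusted p = 0.00134). It was 0.48 without DMSO replicate 3, the lowest library (adjusted p = 1.78e-04). ING2 was at 10.8, 11.2 and 12.9 CPM in DMSO and at 14.9, 16.8 and 18.2 CPM after FT671, with no overlap and a rise of 0.56 (SE 0.14, edgeR adjusted p = 0.00393). CARS2, on the other strand, shares 5.3% of the ING1 exon bases and had a log2 fold change of 0.10.

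**Figure D2:**
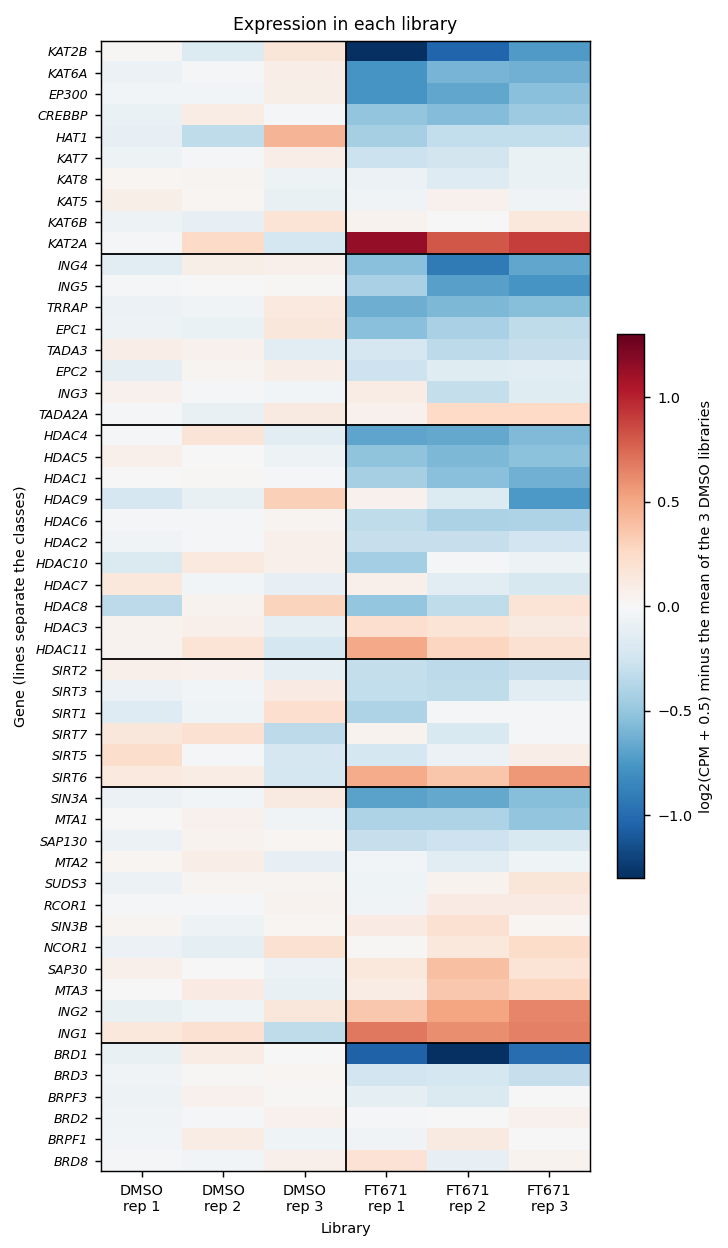
Each row is a gene and each column a library, colored by log2(CPM + 0.5) minus the mean of the 3 DMSO libraries, with black lines between the classes and between DMSO and FT671. KAT2A, ING1 and ING2 are red in all FT671 libraries and KAT2B, KAT6A, EP300 and BRD1 blue in all of them, while HAT1 differs most in DMSO replicate 3.

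SIN3A, the scaffold of the SIN3 complex around HDAC1 and HDAC2, was at 135, 139 and 154 CPM in DMSO and at 87.9, 89.7 and 96.7 CPM after FT671 (chr15:75369379-75455842). These groups lay far apart, and SIN3A was 1.55-fold lower (SE 0.08 on the log2 scale, edgeR adjusted p = 2.31e-05). SIN3B, the alternative scaffold, had a log2 fold change of 0.11 (edgeR adjusted p = 0.377). SAP130, a stabilizing subunit, was lower by 0.25 (edgeR adjusted p = 0.0114), a call lost without FT671 replicate 2. SAP30 and SUDS3, which help bind the scaffold to the deacetylases, were at 0.23 and 0.06 and did not pass (edgeR adjusted p = 0.0842 and 0.583).

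In the NuRD complex, which couples HDAC1 and HDAC2 to a chromatin remodeler, MTA1 fell and its paralogs did not pass. MTA1 was at 156, 163 and 152 CPM in DMSO and at 119, 119 and 110 CPM after FT671. It fell by 0.44 (SE 0.07, edgeR adjusted p = 1.96e-04), and every FT671 library was below every DMSO library. MTA2 was at −0.08 (edgeR adjusted p = 0.358) and MTA3 at 0.24 (edgeR adjusted p = 0.0625), which 6 alternatives called higher. A long noncoding RNA on the other strand shares 4.35% of the MTA1 exon bases and had a log2 fold change of −0.46. The corepressors NCOR1, which activates HDAC3, and RCOR1, which joins HDAC1 to the demethylase LSD1, were at 0.14 and 0.06 (edgeR adjusted p = 0.232 and 0.506). NCOR1 was called higher without DMSO replicate 3 (0.23, edgeR adjusted p = 0.00379) and with the length correction (0.29, adjusted p = 0.00318). Over all 12 subunits of deacetylase complexes 3 fell, 2 rose and 7 did not pass, and the median was positive at 0.09, or 0.17 with the length correction, under which 6 rose.

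The zinc-dependent deacetylases divide into class I (HDAC1, HDAC2, HDAC3 and HDAC8), the signal-responsive class II and HDAC11. Of the 11 genes, 5 fell and 6 did not pass (median −0.28). None rose by edgeR at an adjusted or an unadjusted p of 0.05 or by DESeq2, although the length correction called 2 as higher (HDAC3 and HDAC11). HDAC1 (chr1:32292083-32333635), a catalytic core of SIN3, NuRD and CoREST, was at 172, 175 and 171 CPM in DMSO and at 128, 119 and 112 CPM after FT671. Its DMSO libraries were almost equal and far above FT671, and it was 1.45-fold lower (SE 0.07 on the log2 scale, edgeR adjusted p = 4.92e-05). HDAC2, its partner in the same complexes, was at 139, 142 and 150 CPM in DMSO and at 117, 116 and 120 CPM after FT671. The HDAC2 groups did not overlap either, but the fall was 0.28 (SE 0.07, edgeR adjusted p = 0.00474) and with the length correction 0.13 (adjusted p = 0.12), which ended the call.

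HDAC3, the enzyme of the NCoR complex, was at 105, 106 and 93.7 CPM in DMSO and at 118, 115 and 110 CPM after FT671. Every FT671 library was higher, by a narrow margin, and the log2 fold change was 0.17 (SE 0.08, edgeR adjusted p = 0.0936). A long noncoding RNA on the other strand shares 9.24% of the HDAC3 exon bases and had a log2 fold change of 0.29. HDAC8 was at −0.07 (edgeR adjusted p = 0.84), with at most 4.99 CPM in any library.

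In class II, HDAC4 and HDAC5, which shuttle between cytoplasm and nucleus and bind MEF2 factors, both fell. HDAC5 was at 97.3, 93.1 and 89.1 CPM in DMSO and at 64.6, 61.9 and 64.3 CPM after FT671, with no overlap and a fall of 0.55 (SE 0.08, edgeR adjusted p = 6.02e-05). G6PC3, on the other strand, shares 24.0% of the HDAC5 exon bases and had a log2 fold change of 0.58, the opposite direction. HDAC4 was at 23.2, 26.4 and 21.1 CPM in DMSO and at 14.4, 14.6 and 15.6 CPM after FT671. It fell by 0.66 (SE 0.13, edgeR adjusted p = 5.78e-04), again with separate groups. HDAC6, a mainly cytoplasmic enzyme that deacetylates tubulin, was at 129, 130 and 134 CPM in DMSO and at 104, 98.1 and 98.8 CPM after FT671. These groups were separate as well, and the fall was 0.38 (SE 0.07, edgeR adjusted p = 5.6e-04).

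The remaining deacetylases were HDAC7 at −0.10, HDAC9 at −0.42, HDAC10 at −0.14 and HDAC11 at 0.28 on the log2 scale (edgeR adjusted p = 0.367, 0.371, 0.635 and 0.118). The HDAC9 value rests on few reads, between 0.804 and 2.22 CPM per library, where 3 counts amount to between 0.211 and 0.659 CPM, and its standard error was 0.38. Such limits cover counting error only, as the reads carry no molecular identifiers and may be copies of one another. HDAC10, a polyamine deacetylase, shares 55.8% of its exon bases with MAPK12 on the same strand, so its reads cannot be cleanly assigned.

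Among the sirtuins 1 of 6 fell, 1 rose and 4 did not pass (median −0.11). SIRT6, a nuclear deacetylase of H3K9 and H3K56, was at 21.2, 20.8 and 16.5 CPM in DMSO and at 27.3, 25.1 and 28.8 CPM after FT671. No FT671 library reached down to the DMSO range, and SIRT6 was 1.37-fold higher (SE 0.12 on the log2 scale, edgeR adjusted p = 0.0064). SIRT2, which deacetylates tubulin and H4K16, was at 88.8, 88.2 and 78.4 CPM in DMSO and at 68.4, 67.1 and 69.1 CPM after FT671. The groups were separate, with a fall of 0.32 (SE 0.08, edgeR adjusted p = 0.00467). SIRT1, the deacetylase of p53 and of many transcription factors, was at 32.7, 35.4 and 42.9 CPM in DMSO and at 27.8, 36.3 and 36 CPM after FT671. Its groups overlapped (log2 fold change −0.11, SE 0.13, edgeR adjusted p = 0.487). The mitochondrial SIRT3 and SIRT5 were at −0.24 and −0.08 and the nucleolar SIRT7 at −0.11 (edgeR adjusted p = 0.0898, 0.641 and 0.551). Neighboring genes overlap these loci: RIC8A, which fell by 0.93, shares 1.51% of the SIRT3 exon bases on the other strand, and MAFG, which fell by 1.39, shares 1.71% of the SIRT7 exon bases on the same strand.

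Among the bromodomain proteins 2 of 6 fell and 4 did not pass (median −0.05, or 0.08 with the length correction). None rose by edgeR at an adjusted or an unadjusted p of 0.05 or by DESeq2, although 1 (BRD2) did with the length correction and the block together. BRD1 (chr22:49773283-49827873), the scaffold that links HBO1 and MOZ/MORF to chromatin, was at 34.3, 39.5 and 36.8 CPM in DMSO and at 17.5, 13.9 and 18.2 CPM after FT671. The groups lay far apart, and BRD1 was 2.2-fold lower (fall of 1.14, SE 0.12, edgeR adjusted p = 5.55e-06), so that 4.76% of all genes tested had a fold change as low or lower. The related scaffolds BRPF1 and BRPF3 were at 0.02 and −0.10 (edgeR adjusted p = 0.853 and 0.315).

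BRD2 and BRD3 are BET proteins, the targets of BET inhibitors. BRD3 was at 101, 106 and 107 CPM in DMSO and at 87.7, 89.1 and 84.7 CPM after FT671. The groups did not overlap and BRD3 was lower by 0.26 (SE 0.07, edgeR adjusted p = 0.00891), but the call was lost with the length correction (adjusted p = 0.102) and without FT671 replicate 3. BRD3OS, on the other strand, shares 18.6% of the BRD3 exon bases and fell by 0.63. BRD2 had a log2 fold change of 0.01 (SE 0.07, edgeR adjusted p = 0.919), with 367 to 395 CPM in DMSO and 374 to 393 CPM after FT671. BRD8, a subunit of NuA4/TIP60, was at 0.04 (edgeR adjusted p = 0.692).

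Paralogs, not all of which can replace each other, were then compared within each library. The ratio of 2 genes in a library does not depend on how libraries are scaled. For 15 pairs the log2 ratio of counts was compared between groups by an exact two-sided permutation test over the 6 libraries, which cannot go below p = 0.1. In 10 pairs the groups did not overlap (exact p = 0.1, Benjamini-Hochberg adjusted 0.15 over the 15 pairs), and none of the pairs can pass 0.05 in this design. Groups without overlap were common in these data: among all genes tested, 30.3% were lower and 26.8% higher in this way. No such share is given here for ratios of other gene pairs, so the 10 pairs have no background of their own. KAT2A over KAT2B shifted most, from a log2 ratio of −0.063 ± 0.42 (SD, n = 3) in DMSO to 1.94 ± 0.42 after FT671, a difference of 2.0. SIN3A over SIN3B fell by 0.75, KAT6A over KAT6B by 0.73 and MTA1 over MTA3 by 0.68. SIRT6 over SIRT7 rose by 0.54, MTA1 over MTA2 fell by 0.36, MTA2 over MTA3 by 0.32, EPC1 over EPC2 by 0.25 and HDAC1 over HDAC2 by 0.25. BRD2 over BRD3 rose by 0.27.

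In the other 5 pairs the ratios overlapped between groups. EP300 over CREBBP differed by −0.14 (exact p = 0.3, adjusted 0.375), ING4 over ING5 by −0.11 and HDAC4 over HDAC5 by −0.10 (exact p = 0.4 for both, adjusted 0.429). BRPF1 over BRPF3 differed by 0.13 (exact p = 0.3, adjusted 0.375). ING1 over ING2 differed by 0.14 (exact p = 0.8, also after adjustment), and this value turned to −0.11 without DMSO replicate 3.

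**Figure D3:**
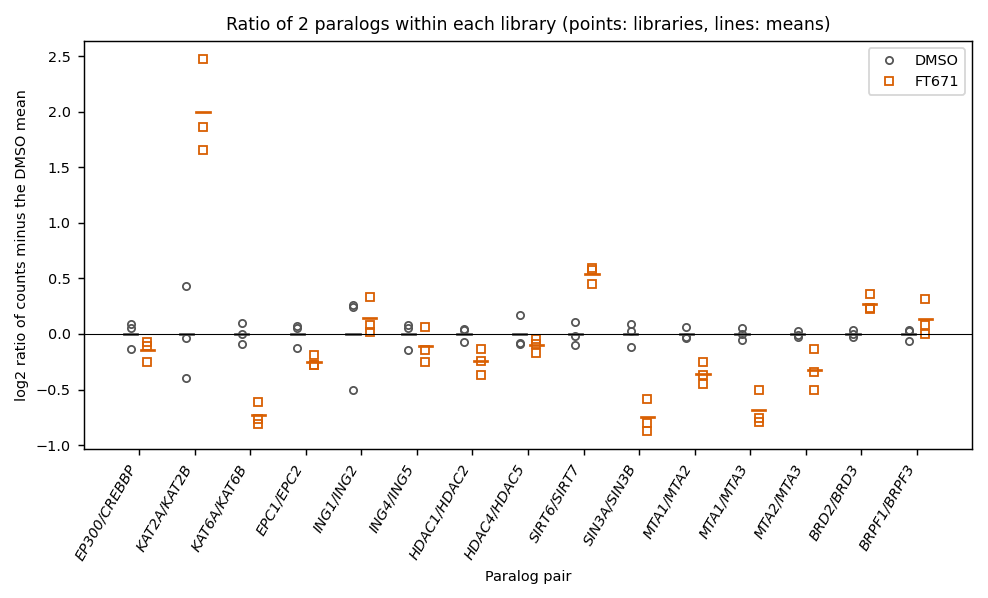
The vertical axis is the log2 ratio of counts of 2 paralogs in a library minus the mean of the 3 DMSO libraries, with circles for DMSO, squares for FT671 and lines for group means. KAT2A/KAT2B lies highest, with all FT671 libraries above 1.5, and KAT6A/KAT6B, SIN3A/SIN3B and MTA1/MTA3 lie lowest.

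Levels between genes were compared per exon length, in TPM, counts divided by exon length and scaled to the same total in every library. MTA2 had the highest mean level in DMSO, 235 ± 3.17 TPM (SD, n = 3), and was above the next gene in every DMSO library. HDAC1 (145 ± 6.83 TPM), TADA3 (143 ± 5.11 TPM) and BRD2 (141 ± 13 TPM) followed and overlapped with each other. The lowest levels were those of HDAC10 (2.98 ± 0.416 TPM), HDAC8 (0.594 ± 0.17 TPM) and HDAC9 (0.335 ± 0.105 TPM), of which the last 2 overlapped. KAT2A and KAT2B were at 27 and 20.5 TPM in DMSO and at 50.5 and 9.61 TPM after FT671. HDAC1 was at 145 TPM in DMSO beside 31.2 TPM for HDAC2, and after FT671 the levels were 96.5 and 24.6 TPM. The divisor is the union of all annotated exons, 3966 bases for HDAC1 and 15333 for HDAC2. The order of genes in TPM therefore depends on the annotation and may not be that of their transcripts. In CPM the DMSO means were 173 for HDAC1 and 144 for HDAC2.

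**Figure D4:**
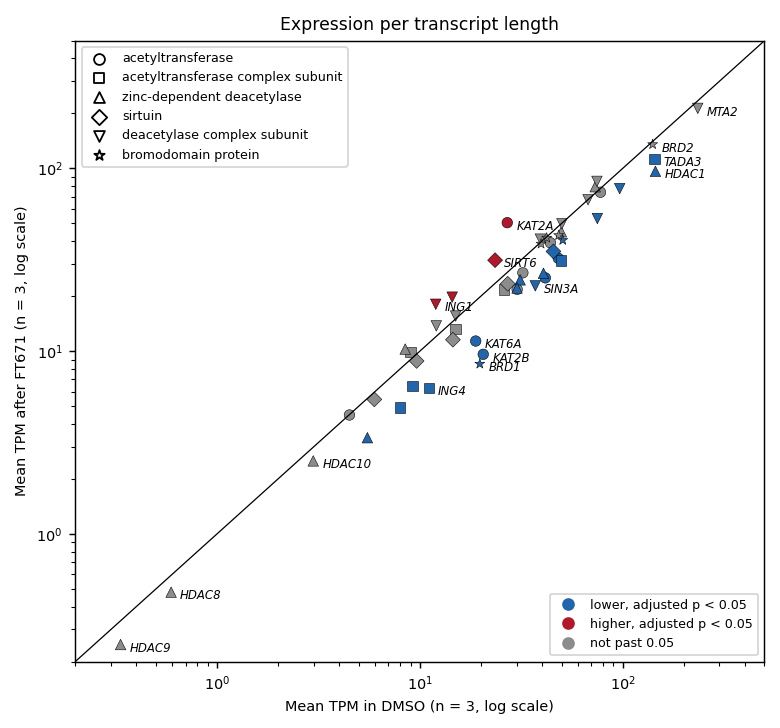
Mean TPM after FT671 is plotted against mean TPM in DMSO (n = 3 each, both axes logarithmic), with 1 symbol per gene, shaped by class and colored by the call at an adjusted p of 0.05, and a diagonal for equal levels. KAT2A (27 to 50.5 TPM) lies farthest above the diagonal, and BRD1 (19.8 to 8.52 TPM) and KAT2B (20.5 to 9.61 TPM) farthest below it.

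A further 91 genes of the same machinery were looked up, of which 88 could be tested (ATXN7, MLLT3 and BRDT had too few counts). Of these, 32 fell and 22 rose at an adjusted p of 0.05 (edgeR), or 36.4% and 25% beside 26.5% and 23.6% of all genes tested, with a median log2 fold change of −0.10. Of these 54 calls, 20 were lost under at least 1 alternative, and the 10 genes named next by size kept theirs. The 5 that fell most were SIRT4, MBD3, SAP30L, CECR2 and ATAD2. MBD3, a core NuRD subunit, was at 36.6, 33.2 and 30.5 CPM in DMSO and at 10.9, 10.6 and 10.0 CPM after FT671, a fall of 1.69 (SE 0.12, edgeR adjusted p = 1.63e-07) between separate groups. SAP30L, the paralog of SAP30 in the SIN3 complex, fell by 1.41, and the bromodomain genes CECR2 and ATAD2 fell by 1.27 and 1.18 (edgeR adjusted p = 1.6e-05, 3.29e-05 and 3.67e-06). SIRT4, a mitochondrial sirtuin, fell by 2.45 (SE 0.56, edgeR adjusted p = 0.00253), but it was at 1.25 to 2.59 CPM in DMSO and at no more than 0.361 CPM after FT671, where 3 counts set the limit of detection.

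The 5 that rose most were GPS2, ACLY, RUVBL1, RBBP7 and ENY2. ACLY, which makes acetyl-CoA from citrate, was at 412, 413 and 428 CPM in DMSO and at 658, 628 and 645 CPM after FT671, far apart, and rose by 0.62 (SE 0.06, edgeR adjusted p = 3.62e-06). GPS2, an NCoR subunit, rose by 0.64, RUVBL1, an ATPase of NuA4/TIP60, by 0.59, RBBP7, a histone chaperone of SIN3 and NuRD, by 0.51 and ENY2, of the SAGA deubiquitinase module, by 0.51 (edgeR adjusted p = 4.34e-04, 1.04e-05, 5.22e-05 and 7.57e-04).

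By complex, 8 of 17 further SAGA and ATAC subunits fell and 5 rose, while NuA4/TIP60 had 4 lower and 4 higher of 12. Among all genes tested, 26.5% fell and 23.6% rose, and the groups given here hold only 5 to 18 genes each. Among the MSL, NSL and JADE subunits 5 of 12 fell and 1 rose. The SIN3 subunits gave 1 lower and 3 higher of 8, and those of NuRD, CoREST, NCoR and MiDAC 7 lower and 4 higher of 18. Of the other acetyl-lysine readers 6 of 16 fell and 1 rose. In the group for acetyl-CoA supply and the sirtuin cofactor 4 of 5 rose (ACLY, ACSS2, NAMPT and NMNAT1), of which NMNAT1 lost its call under 7 alternatives (adjusted p up to 0.153), and the gene that fell was SIRT4, which makes neither.

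**Figure D5:**
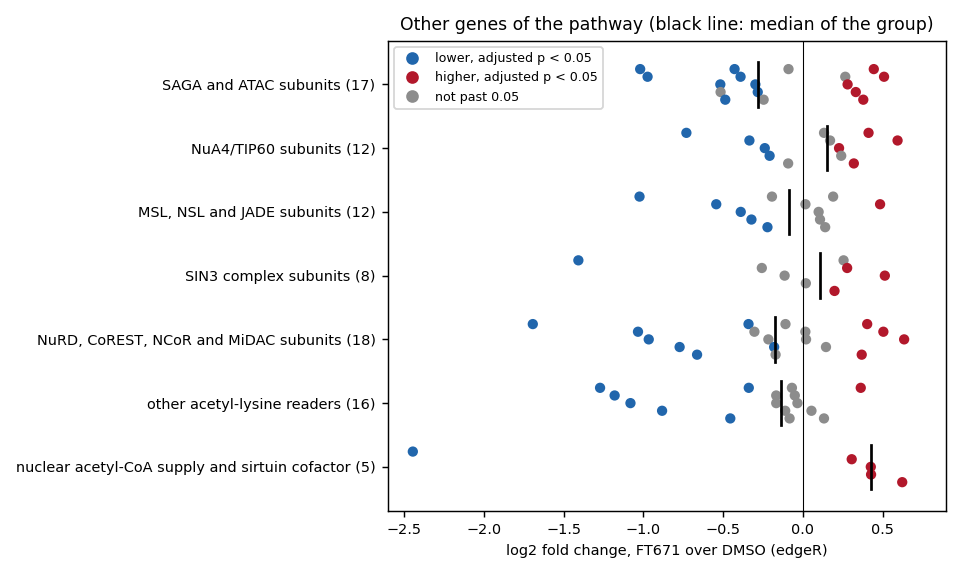
Each point is 1 of 88 further genes of the machinery, placed by its log2 fold change (FT671 over DMSO, edgeR) in the row of its complex, with the number tested in parentheses, a black line for the group's median and colors for the call at an adjusted p of 0.05. Every row holds genes on both sides of 0, and SIRT4 lies farthest left at −2.45 and GPS2 farthest right at 0.64.

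The libraries carried the markers of the labelled line. The erythroid and progenitor genes checked were expressed, with a summed level of 1253 to 1291 CPM in DMSO and 1120 to 1156 CPM after FT671. Most of the DMSO sum came from TFRC (mean 565 CPM) and GATA1 (mean 297 CPM). HBG1, HBG2 and HBZ had DMSO means of 36.9, 28.2 and 39.0 CPM. After FT671, GATA1, TAL1, KLF1 and TFRC were lower and HBG1, HBG2 and HBZ higher at an adjusted p of 0.05 (edgeR), and the part of this shift in the values above was not tested. The 5 lymphocyte markers summed to between 18.7 and 32.9 CPM, almost all of it CD3D, which was higher after FT671 (edgeR adjusted p = 0.00988), while MS4A1 was at 0 in every library and CD3E and CD79A were near 0. The 5 monocyte and fibroblast markers summed to between 2.68 and 3.25 CPM, CD14 and DCN were at or near 0, and none was called.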

How the data were processed

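Total RNA of K562 cells was sequenced in 3 DMSO and 3 FT671 libraries. The authors mapped reads to hg38 using STAR and deposited unnormalized read counts per gene for each library. The STAR version, annotation release and strand setting are not given in the sources used here. The 6 ChIP samples of the series were not analysed here, and 0 columns of other samples were met.

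Identifiers were matched to GENCODE release 44 (60295 of 60609). Genes passing filterByExpr were tested with edgeR 4.0.16 (quasi-likelihood, TMM, no covariates, Benjamini-Hochberg adjustment over 13895 genes) in R 4.3.3. A fold change is FT671 over DMSO, and its SE was derived from the F statistic of its test. TPM divides counts by union exon length. Ratios of paralogs used a prior of 0.5 reads and exact permutation tests written in Python 3.11.15 with numpy 2.4.6. The 3-count limit lay between 0.211 and 0.659 CPM. The fit was tested on simulated data. The study calls its replicates independent experiments, and p-values measure the spread between these libraries.

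The genes of the list, the further genes of the machinery, the paralog pairs and the marker lists (erythroid and progenitor, lymphocyte, monocyte and fibroblast) were chosen with earlier results of these data known, and a few of their genes are not reported here. By rule, every gene of the list is named, and values in each library are given for the 4 lowest adjusted p per class (those past 0.05 if fewer) and for SIN3A, EP300, CREBBP, HDAC1, HDAC2, HDAC3 and SIRT1. Of the further genes the 5 largest falls and rises past 0.05 are named. Overlapping genes are named where they bear on a count. KAT2B and HAT1 were given in each library after their values were seen. Alternatives were DESeq2 1.42.0 (its size factors or its Wald test), library totals, no filter, a minimum of 10 counts per library, protein-coding genes, corrections for gene length or GC content (loess, span 0.3), thinning to the smallest total, the replicate number as a block, and each library left out.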

Additional observations from a re-analysis of the deposited data

How the results depend on the processing

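Over 18 alternatives the 53 genes gave 949 fold changes, which include those of the genes not called in the main fit. Of these 900 kept their side of an adjusted p of 0.05, 7 lost a call and 42 gained one, no called value changed sign, and 34 uncalled values did. Of the 24 genes called, 20 kept the call throughout and 4 lost it under some alternative (EPC1, HDAC2, SAP130 and BRD3). For these shifts the cause was not tested. Genes of the list called higher numbered 11 with the length correction, whether or not blocked, and 9 with the GC correction (both), in place of 4. Over all genes, 3823 were called higher with the length correction without the block, in place of 3276. By class, with the length correction, the zinc-dependent deacetylases had 2 higher (2 with GC), the subunits of deacetylase complexes 6 (5 with GC), those of acetyltransferase complexes 1 without the block, and the bromodomain proteins 1 lower, with 1 higher under the block. Thinning gave 2 sirtuins lower. The median log2 fold change of members of the list was −0.054 with the length correction (−0.0852 with the block), −0.082 with GC and −0.19 with the block alone. With the length correction, without and with the block, it was −0.14 and −0.15 for acetyltransferases, −0.25 and −0.26 for subunits of their complexes, −0.13 and −0.13 for zinc-dependent deacetylases, 0.17 and 0.16 for subunits of deacetylase complexes, and 0.078 and 0.079 for bromodomain proteins. With GC it was 0.15 and 0.14 for subunits of deacetylase complexes, 0.026 for bromodomain proteins without the block and −0.32 for zinc-dependent deacetylases with it. For the latter it was −0.21 with at least 10 counts in every library and −0.20 after thinning.

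At 1e-05 the counts moved most. Genes of the list lower at 1e-05 numbered 12 with no filter, 9 by DESeq2, 6 with the block, 7 with length and block, 6 with GC, 8 with GC and block and 3 after thinning, in place of 1. In place of none, 1 was higher (KAT2A) with no filter, by DESeq2, with the block, and with length or GC, both without and with the block. The count of all genes lower at 1e-05 was 1757 with no filter, 1173 by DESeq2, 907 with length and block, 1057 with GC and 984 with GC and block, in place of 574. The count of all genes higher at 1e-05 was 977, 880, 920, 963 and 971 under the same settings, 508 with length alone and 402 with the block, in place of 249. Of the further genes, 16 were lower with no filter and 13 by DESeq2 and with GC, in place of 8. In place of 1, those higher numbered 2 with DESeq2's size factors, protein-coding genes, the block and thinning, 4 with no filter, 6 by DESeq2 and with length, 8 with length and block and with GC, and 7 with GC and block.

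With each library left out in turn, all genes lower at 1e-05 ranged from 73 to 1501 and all genes higher at 1e-05 from 34 to 1106. At the same threshold the list had 0 to 10 lower and 0 to 1 higher, and the further genes 0 to 13 and 0 to 7. The upper ends came without DMSO replicate 3. The bromodomain proteins had 1 to 2 lower. Medians ranged from −0.22 to −0.13 for the list, −0.33 to −0.15 for acetyltransferases and −0.33 to −0.20 for zinc-dependent deacetylases. ING1 over ING2 ranged from −0.11 to 0.27.

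Replicate numbers are shared by the groups, but same-numbered libraries deviated together only weakly (r = 0.115, −0.0605 and 0.140). DMSO replicates 1 and 3 correlated best with the FT671 library of the same number, and DMSO replicate 2 with FT671 replicate 1 (0.125). With correlations this weak, the numbers were not taken as pairs in the main test, and these values do not settle whether they are. When the number entered as a block, 22 genes of the list were lower and 4 higher, and all 24 calls were kept. Depth limits HDAC8, HDAC9, HDAC10 and SIRT4.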

Other observations

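Of the 88 further genes of the machinery, 8 fell and 1 rose past an adjusted p of 1e-05 (edgeR). Among all genes tested, 4.13% fell and 1.79% rose at this threshold. Some of the genes that fell and were not described above are given here, chosen after their values were seen. USP22, the deubiquitinase of SAGA, was at 277, 274 and 275 CPM in DMSO and at 143, 147 and 131 CPM after FT671 (fall of 0.97 on the log2 scale, edgeR adjusted p = 1.66e-07). Its groups did not overlap, and the same held for the genes that follow. MLLT1, which encodes the acetyl-lysine reader ENL, fell by 1.08, MIDEAS, a subunit of the mitotic deacetylase complex, by 0.97, GATAD2B, of NuRD, by 0.77 and TBL1X, of NCoR, by 0.66 (edgeR adjusted p = 1.53e-07, 1.51e-06, 5.65e-06 and 8.54e-06).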
